A study of Mus musculus and Homo sapiens with 10 samples.

Results

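The replication-dependent histone gene clusters of mouse enterocytes were followed as 440 windows of 1 kb out of 2722418 on the main mouse chromosomes. They are all the windows of 3 regions of GRCm38: cluster A, chromosome 13 from 21700001 to 21850000 (150 windows); cluster B, chromosome 13 from 23530001 to 23770000 (240 windows); and cluster C, chromosome 3 from 96230001 to 96280000 (50 windows). The regions were chosen by position, and the 1680 windows of the interval that separates clusters A and B on chromosome 13 served for comparison. RefSeq places 54 protein-coding replication-dependent histone genes in the clusters: 18 in A, 29 in B and 7 in C. By family they are 6 H1, 12 H2A, 13 H2B, 12 H3 and 11 H4 genes. The clusters hold 2 other protein-coding genes, the olfactory receptor Olfr1359 in A and the iron regulator Hfe in B.

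DNA double-strand break ends had been mapped by in-suspension BLISS, in which break ends are blunted, joined to an adapter, amplified by transcription and sequenced, so that each count marks where a DNA end lay. Enterocytes, the absorptive cells of the gut lining, came from mouse jejunum and were sorted by surface Cd73, the ectonucleotidase encoded by Nt5e, into Cd73 negative, Cd73 mid and Cd73 high cells. Each gate had 2 libraries, numbered M1 and M2, and the labels name no strain, age, sex or treatment for any of them. The labels do not say that M1 and M2 are separate animals, so every test here measures only the spread between these libraries, which may be technical. Nuclear break ends numbered 13043514 and 12585228 in the Cd73 negative libraries, 4757961 and 5160171 in mid, and 1522615 and 1272771 in high, so the high libraries were the shallowest. Levels are break ends per 1000000 nuclear break ends of the library (EPM), and intervals on them cover counting error only. Break ends are DNA, so they give no marker check of the sorted cell type.

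Replication-dependent histone genes are typically short and without introns, and lie side by side in the genome. They supply most of the H2A, H2B, H3, H4 and linker H1 proteins that package newly copied DNA. They are transcribed mainly in S phase, from a nuclear compartment called the histone locus body, and their messages end in a stem-loop in place of a poly(A) tail. Dividing cells of the intestine lie in the crypts, whereas villus enterocytes have left the cell cycle.

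Upstream sequences of the genes on which the results turn are shown first, because break ends gathered there. The RefSeq promoter table (GRCm38.p6) matched 51 starts of 50 of the 54 genes; H3c1, H2bc4, H4c14 and H3c7 are named only. Capitals mark the motifs TATAAA (the TATA box), CCAAT (the binding sequence of NF-Y) and ATTTGCAT (the octamer), found on either strand, and each sequence ends at the base before the start. H3c10 had the highest start level of an H3 gene and H1f4 of an H1 gene, and the H2bc7 and H2ac7 stretch is the whole DNA that separates this divergent pair, so it serves both genes. H4c2 was low, H1f6 (the testis linker histone H1t) was the lowest of the starts without a repeated sequence, and H2bc23 had no break end in any library.
H3c10, chr13:21717428-21717627, plus strand: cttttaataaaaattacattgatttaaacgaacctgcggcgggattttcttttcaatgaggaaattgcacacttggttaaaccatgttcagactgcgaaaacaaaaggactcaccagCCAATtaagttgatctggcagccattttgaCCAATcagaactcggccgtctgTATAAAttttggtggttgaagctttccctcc
H1f4, chr13:23622559-23622758, minus strand: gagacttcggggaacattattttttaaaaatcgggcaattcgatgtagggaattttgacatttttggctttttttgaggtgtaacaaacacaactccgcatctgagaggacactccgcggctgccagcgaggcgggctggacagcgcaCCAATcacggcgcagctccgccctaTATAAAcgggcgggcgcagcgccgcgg
H2bc7 and H2ac7 shared, chr13:23574208-23574380, plus strand: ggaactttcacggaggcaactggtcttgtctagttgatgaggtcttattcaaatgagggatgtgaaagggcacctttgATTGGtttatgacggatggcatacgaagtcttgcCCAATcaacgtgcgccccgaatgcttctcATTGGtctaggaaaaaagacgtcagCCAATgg
H4c2, chr13:23756737-23756936, plus strand: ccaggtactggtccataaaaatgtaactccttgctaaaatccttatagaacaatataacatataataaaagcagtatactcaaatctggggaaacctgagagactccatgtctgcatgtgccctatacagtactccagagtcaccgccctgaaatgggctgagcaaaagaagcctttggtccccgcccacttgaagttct
H1f6, chr13:23695611-23695810, plus strand: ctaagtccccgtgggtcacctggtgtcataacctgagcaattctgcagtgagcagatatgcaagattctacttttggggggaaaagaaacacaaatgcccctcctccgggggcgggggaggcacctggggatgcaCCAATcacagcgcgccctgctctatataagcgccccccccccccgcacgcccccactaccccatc
H2bc23, chr13:21810200-21810399, minus strand: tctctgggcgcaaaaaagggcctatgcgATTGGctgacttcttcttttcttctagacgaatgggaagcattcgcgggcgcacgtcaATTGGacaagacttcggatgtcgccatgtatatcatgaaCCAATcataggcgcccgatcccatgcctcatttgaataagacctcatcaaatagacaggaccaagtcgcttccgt
The H3c10 stretch held 33 and 55 break ends in the Cd73 negative libraries, 14 and 14 in mid, and 2 and 4 in high. The H1f4 stretch held 37, 39, 15, 9, 5 and 3 in the same order, and the stretch shared by H2bc7 and H2ac7 held 54, 45, 5, 22, 1 and 2. H4c2 held 13, 14, 1, 0, 0 and 0, and H1f6 held 1 in a Cd73 negative library and 0 in the other 5. The 200 upstream bases of H2bc23 are the same, base for base, as those of its copy in cluster A that the table calls H4bc24 (synonym Hist1h2br), and neither stretch had a break end.

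Motifs were counted in the full window of 300 bases, 250 before the start and 50 from it. CCAAT was present in 44 of the 51 histone windows (86.3%), against 38.2% of 21237 protein-coding start windows of the same length. All 6 H1, 12 H2A, 13 H2B and 10 H3 windows held it, but 3 of 10 H4 windows. TATAAA was in 27 (52.9%, against 12.6%), and in 7 of the 10 H4 windows. Those 7 include 2 pairs with copied sequence, H4c11 with H4c12 (28.8% copied) and H4c17 with H4c18 (94.5%). Copied sequence can thus count more than once. ATTTGCAT was in 8 (15.7%, against 1.66%): 5 H2B and 3 H2A windows, and none of the H1, H3 or H4 windows. Start windows of divergent H2A and H2B pairs overlap, so a motif in shared DNA, as for H2ac8 and H2bc8, counts for both genes. Merged where they overlap, the 51 windows make 44 stretches. None of the motifs contains another, and a match is a match of letters only.

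The histone clusters were denser in break ends than the interval in every library. Clusters A, B and C together held 0.689 and 0.758 EPM per kb in the Cd73 negative libraries, 0.578 and 0.692 in mid, and 0.587 and 0.534 in high. The interval held 0.310 and 0.310, 0.300 and 0.298, and 0.294 and 0.266. The ratio of the clusters to the interval, which does not depend on library scaling, was 2.22 and 2.44 for the Cd73 negative libraries, 1.93 and 2.32 for mid, and 1.99 and 2.01 for high. On the log2 scale it averaged 1.10 ± 0.14 (SD, n = 6), with p = 0.03125 in the exact two-sided sign-flip permutation test, the smallest that 6 libraries can give. The ratio was above 1 in 6 of 6 libraries. Those 6 may share animals, since libraries of different gates carry the same M numbers.

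The clusters differed among themselves. Cluster B was densest, at 0.844 ± 0.063 EPM per kb in Cd73 negative, 0.758 ± 0.088 in mid and 0.697 ± 0.055 in high (SD, n = 2 each). Cluster C had 0.763 ± 0.065, 0.641 ± 0.146 and 0.573 ± 0.012. Cluster A had 0.517 ± 0.020, 0.437 ± 0.047 and 0.337 ± 0.025, below both other clusters in all 6 libraries. Against the interval, cluster A stood at 1.67-fold in Cd73 negative, 1.46-fold in mid and 1.20-fold in high, and cluster B at 2.72-, 2.54- and 2.49-fold. The interval itself lay below the mean of all genomic windows (0.367 EPM per kb) in all 6 libraries. Cluster A lay below that mean in both Cd73 high libraries (0.355 and 0.320). Counting error was widest in cluster C of the Cd73 high libraries, where 43 and 37 break ends gave exact Poisson 95% intervals of 0.409 to 0.761 and 0.409 to 0.801 EPM per kb.

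**Figure D1:**
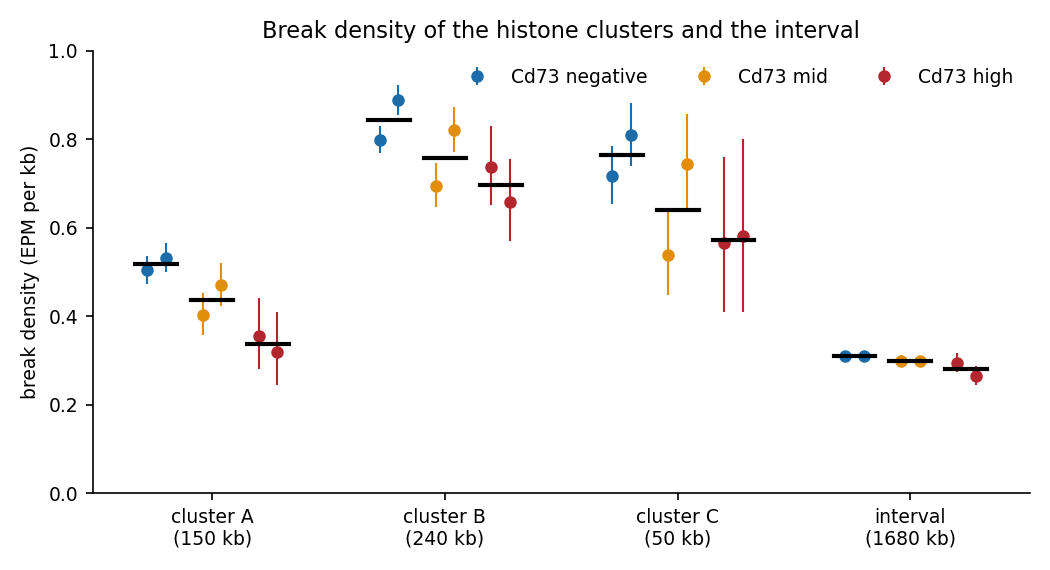
Break ends per 1000000 of the library and kb (vertical axis, EPM per kb) in clusters A, B, C and the interval (horizontal axis); each point is a library with its exact Poisson 95% interval, colours are the Cd73 gates and black bars the mean of 2 libraries. All cluster points lie above the interval, and cluster A in the Cd73 high libraries (0.355 and 0.320) lies nearest to it.

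Within the clusters, break density was higher in windows that carry histone genes than in the other windows together. The histone windows did not hold most of the break ends in every library. They were not the only dense class: 4 cluster windows with a tRNA gene averaged 1.04 ± 0.31 EPM per kb, against 1.03 ± 0.23 in the histone windows (SD over 6 libraries). Of the 440 windows, 63.9% lay above the median of all genomic windows (0.298 EPM, mean of 6 libraries), 26.8% above the 90th percentile (0.733) and 33 windows (7.5%) above the 99th (1.75). By cluster, 46% of the windows of A, 72.9% of B and 74% of C lay above the median. Above the 99th percentile lay 2%, 10.8% and 8%. In the interval, 38.8% lay above the median and 0.833% above the 99th percentile. Windows that touch a histone gene, 139 of the 440, held 1.13 and 1.33 EPM per kb in the Cd73 negative libraries, 0.868 and 1.23 in mid, and 0.869 and 0.763 in high. The other 301 windows held 0.486 and 0.494, 0.444 and 0.446, and 0.456 and 0.428. The ratio averaged 1.14 ± 0.27 on the log2 scale (SD, n = 6) and was above 1 in 6 of 6 libraries. The exact two-sided sign-flip permutation test gave p = 0.03125, the smallest possible. Every window of an annotated gene span counted as touching the gene, and some spans are long. They are 37455 bp for H2bc6, 14079 for H2bc22, 8282 for H2bc4 and 3788 each for H2bc23 and H4bc24. Many touching windows thus lie away from a histone start, and the ratio was not computed without these spans. Between genes the clusters were still denser than the interval: 286 windows without a histone, tRNA or other protein-coding gene averaged 0.442 ± 0.022 EPM per kb, against 0.257 ± 0.016 in 1391 such windows of the interval (SD over 6 libraries).

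The densest window of cluster B, 23684001 to 23685000, holds the start of H2bc4 and had 72, 88, 22, 24, 7 and 9 break ends (Cd73 negative M1 and M2, mid M1 and M2, high M1 and M2). The next were the H1f4 window at 23622001 (54, 66, 23, 25, 6 and 3) and the H1f2 window at 23739001 (65, 64, 16, 24, 5 and 2); H1f2 and H1f4 are somatic linker histones. In cluster A the H3c10 window at 21717001 led with 56, 85, 19, 25, 9 and 6, before its neighbour at 21716001 with the divergent H2ac13 and H2bc13 (52, 47, 13, 34, 8 and 1). The window at 21787001, with the divergent pair H2ac22 and H2bc22, came next (41, 49, 23, 11, 5 and 3). In cluster C the densest window, 96278001, touches no histone gene (24, 42, 9, 17, 4 and 2), followed by H3c13 and H2bc18 at 96269001 (41, 37, 7, 10, 4 and 3) and H4c14 at 96262001 (27, 38, 8, 16, 2 and 1). Each of these 9 windows had break ends in all 6 libraries.

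At the other extreme, 61 of the 440 windows (13.9%) had no break end in any library, against 13.5% of all genomic windows. Cluster A held 45 of them. They lay mostly in long runs: 16 windows in a row from 21796001 cover H2bc23, H2ac23, H4c17 and the far end of H2bc22, and 15 from 21832001 cover H4c18, H2ac24 and H4bc24. Both runs hold genes whose start windows are copied, as described below.

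**Figure D2:**
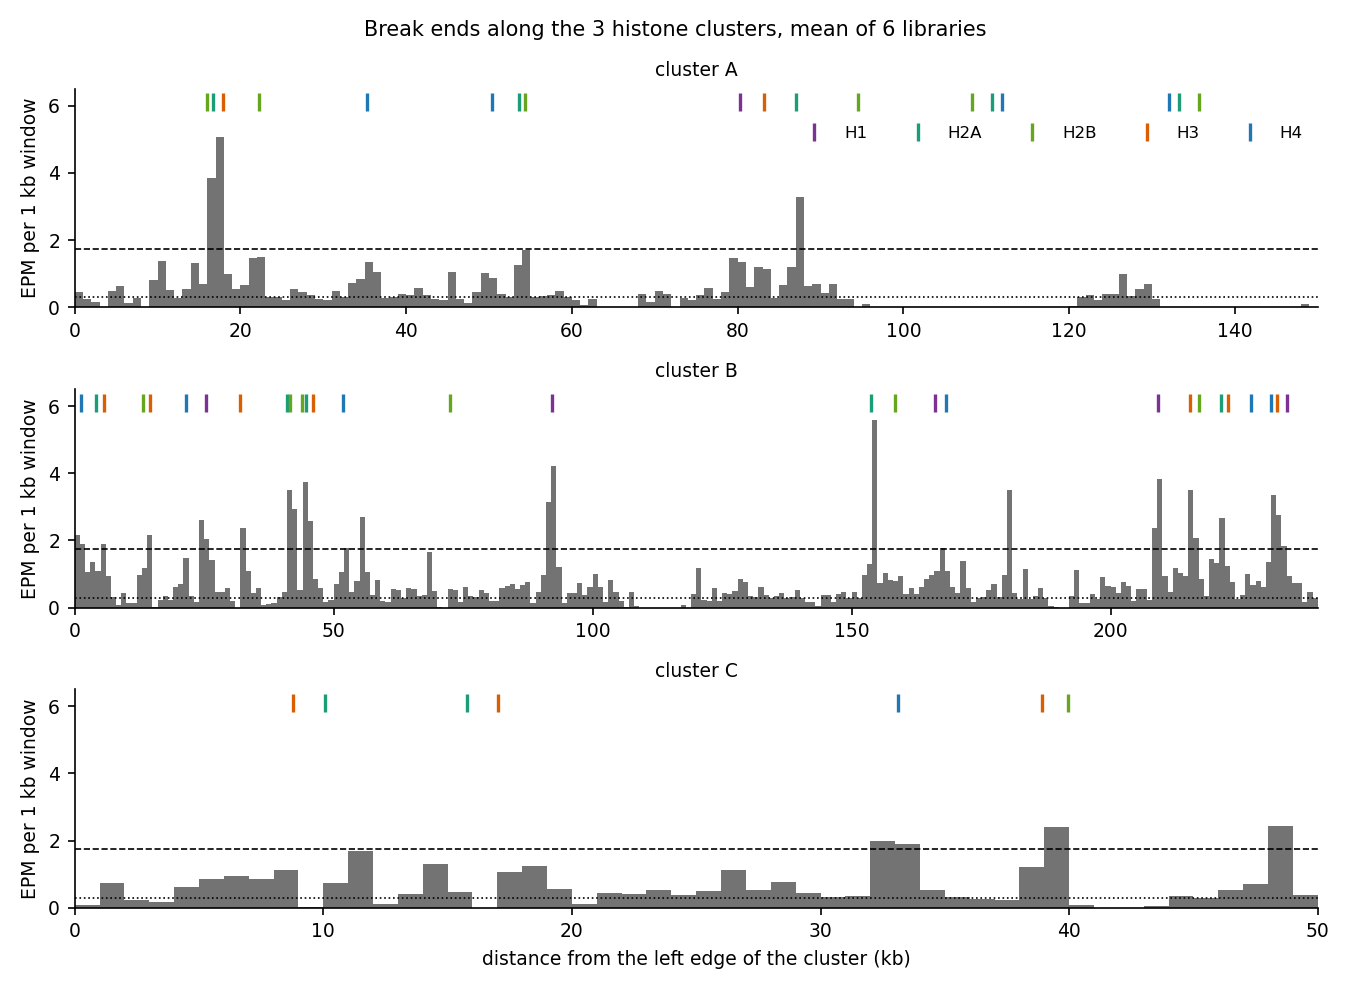
Mean EPM of 6 libraries in each 1 kb window (vertical axis) by distance from the left edge of the cluster in kb (horizontal axis), with histone genes as coloured ticks by family; the dotted and dashed lines are the genomic median (0.298) and 99th percentile (1.75). Peaks stand under gene ticks in much of clusters A and B, and the right part of cluster A has 2 long stretches at 0 under gene ticks.

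Break ends peaked just upstream of histone starts and nearly vanished inside the genes. Over the 51 starts, the 200 bases before the start held 6.17 and 7.09 EPM per kb in the Cd73 negative libraries, 4.27 and 5.66 in mid, and 3.48 and 2.70 in high. The same stretch over all protein-coding starts averaged 3.24 ± 0.31, 2.63 ± 0.51 and 2.09 ± 0.19 (SD, n = 2 each). From 100 to 349 bases past the start, the histone genes held 0.190 ± 0.031, 0.149 ± 0.047 and 0.165 ± 0.059 EPM per kb, whereas all protein-coding genes held 2.10 ± 0.25, 1.81 ± 0.37 and 1.51 ± 0.13. Pooled over the 51 starts, histone genes thus lay above the average gene upstream and below it inside, in all 6 libraries on both sides. Taken over its 10 starts, the H4 family did not share the upstream excess. Its 200 upstream bases held 2.68 ± 0.37 EPM per kb in negative, 1.71 ± 0.04 in mid and 0.361 ± 0.046 in high (SD, n = 2 each). These levels lay below those of all protein-coding starts in each gate, whereas the other families lay above them. In the 500 bases that begin 500 bases past the start, beyond the end of most histone genes, the level was back at 1.86 ± 0.23, 1.53 ± 0.53 and 1.18 ± 0.05, against 1.50 ± 0.21, 1.30 ± 0.25 and 1.10 ± 0.06 for all genes. Divergent H2A and H2B starts share break ends in this profile, since each start was counted with its own surroundings.

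H4 had the lowest level upstream and H1 the highest inside; differences between families were not tested. In the Cd73 negative libraries the 200 upstream bases held 7.38 ± 0.23 EPM per kb in H1, 7.55 ± 0.28 in H2A, 7.89 ± 0.18 in H2B and 7.39 ± 2.97 in H3, but 2.68 ± 0.37 in H4 (SD, n = 2). The 2 H3 values were far apart, so H3 is known less well than the others. Without the start windows with over 50% copied, the 300-base windows held 5.83 ± 0.30 in H1, 8.95 ± 0.46 in H2A, 7.60 ± 0.11 in H2B, 7.07 ± 2.78 in H3 and 2.75 ± 0.37 in H4. Inside the gene, from 100 to 349 bases, H1 kept 0.914 ± 0.281, and H2A, H2B, H3 and H4 had 0.064 ± 0.054, 0.192 ± 0.005, 0.016 ± 0.022 and 0.078 ± 0.024. Core histone coding sequences are alike within a family and the H1 genes less so. The sequence of the gene bodies was not used here, and whether reads from them map to a single place was not tested.

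**Figure D3:**
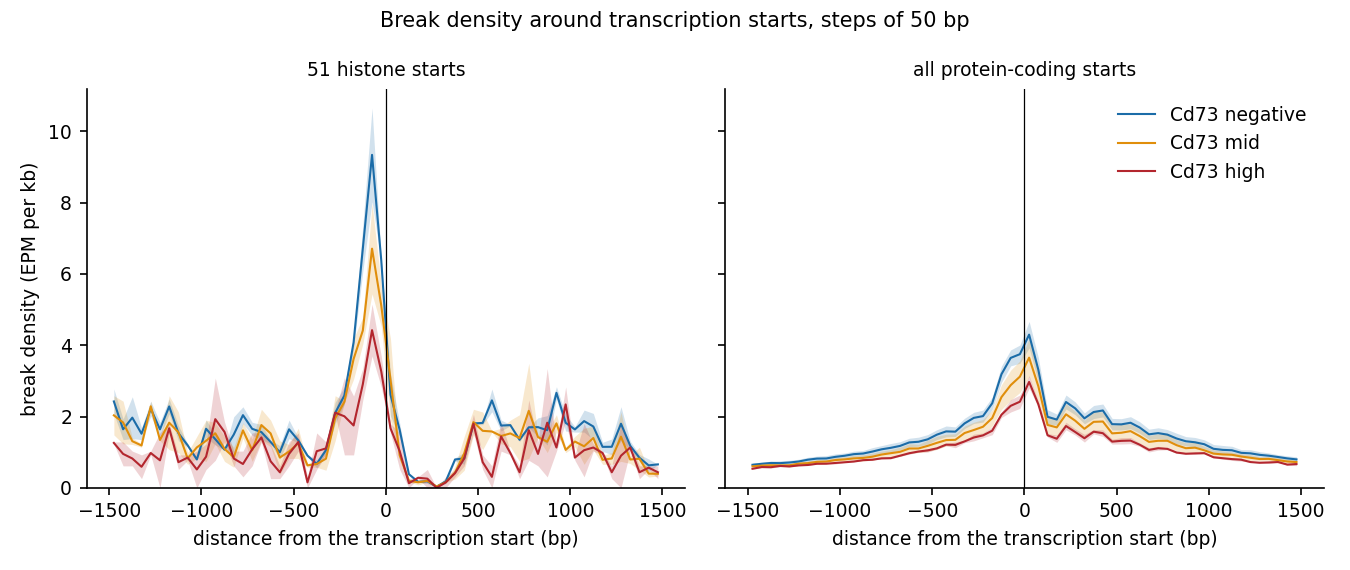
Break density (vertical axis, EPM per kb) in steps of 50 bp by distance from the transcription start (horizontal axis; negative is upstream) for 51 histone starts (left) and all protein-coding starts (right); lines are gate means and shading the range of 2 libraries. The histone profile peaks in the 200 bases before the start and falls close to 0 from 100 to 349 bases inside, where all protein-coding genes keep 1.51 to 2.10 on average.

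Repeated sequence marked the starts without break ends. For each 300-base start window, the share of its 30-base stretches with an exact copy elsewhere among all promoter windows was computed. Of the 51 windows, 8 had no break end in any library, and each of the 8 had between 75.3% and 100% of its stretches copied: H2bc23, H4bc24, H2ac23, H2ac24, H4c17, H4c18, H3c14 and H3c15. For H2bc23 and H4bc24 all 300 bases were identical, and the longest identical stretch was 285 bases for H4c17 and H4c18, 231 for H3c14 and H3c15, and 200 for H2ac23 and H2ac24. A further pair, H2ac18 and H2ac19 in cluster C, shared 219 bases and had 2 and 5 break ends over all 6 libraries. None of the 38 windows without a copied stretch was at 0. For a single window, a count of 0 allows up to 0.230 EPM in the deepest library and 2.36 EPM in the shallowest (3 counts of each library's total). How the alignment was filtered is not given in the sources used here, so whether reads from the copied windows were discarded was not tested.

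**Figure D4:**
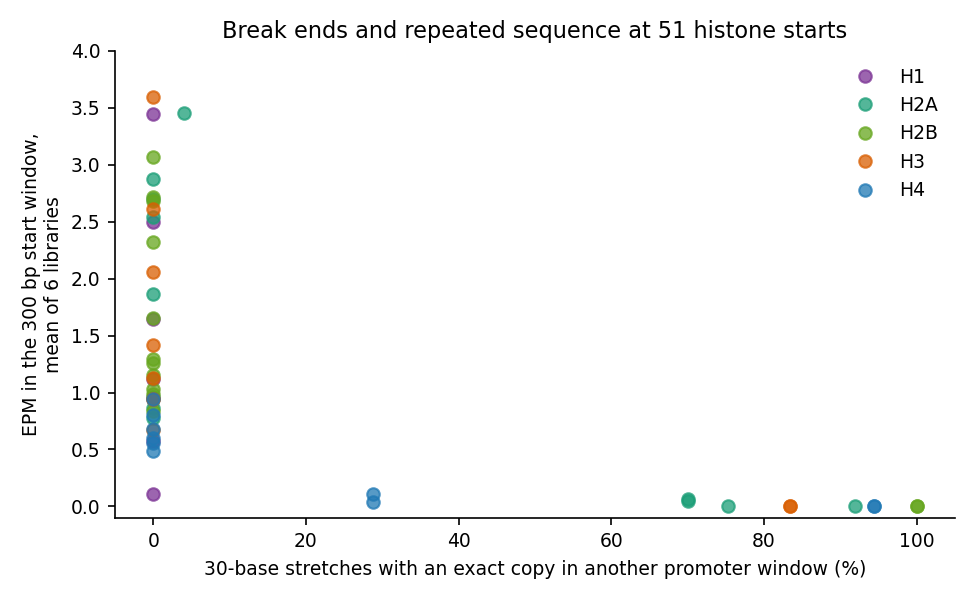
Mean EPM of 6 libraries in the 300-base start window (vertical axis) against the percent of its 30-base stretches with an exact copy in another promoter window (horizontal axis), 1 point per histone start, coloured by family. Every window above 0.2 EPM lies at the left edge, and the 10 windows with over 50% copied lie at or near 0.

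Among starts with few or no copied stretches, levels ranged widely. H3c10, in cluster A, had 40, 66, 16, 18, 5 and 4 break ends in its 300-base window (Cd73 negative M1 and M2, mid M1 and M2, high M1 and M2), a mean of 3.60 EPM. H2ac7 had 61, 58, 6, 26, 3 and 4 (3.45 EPM), and H1f4 had 43, 51, 18, 20, 5 and 3 (3.44 EPM). The somatic linker H1f3 had 46, 33, 11, 18, 1 and 3 (2.49 EPM), while H1f5, also a somatic linker, had 3, 7, 3, 3, 1 and 1 (0.573 EPM). The testis linker H1f6 had 1, 2, 2, 0, 0 and 0 (0.109 EPM). The H1 family thus ran from near the top to near the bottom of the 51 windows with no copied sequence in play at either end. For H4, the highest window was H4c1, with 12, 11, 8, 1, 3 and 0 (0.940 EPM), and H4c11 and H4c12, which have 28.8% of their stretches copied, had 7 and 3 break ends over all libraries.

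Per kb of the gene with 500 bp on each side, the 5 densest histone genes were H3c1 (mean 3.83 EPM per kb), H1f4 (3.79), H3c10 (3.68), H1f2 (3.50) and H2bc8 (3.15). H3c1 had 4.13 and 4.39 EPM per kb (negative), 3.78 and 5.42 (mid) and 2.62 and 2.62 (high). H1f4 had 4.09 and 4.82, 3.42 and 5.22, and 2.58 and 2.65. In both genes the high libraries lay below all others. H3c10 did not follow them: its values were 3.35 and 4.75 (negative), 2.68 and 3.65 (mid), and 3.97 and 3.70 (high), with overlapping gates. Counts in the high libraries are few. The 1 kb window of H3c10 at 21717001 held 9 and 6 there, and that of H1f4 at 23622001 held 6 and 3. This contrast between genes is therefore poorly known. The lowest were H2bc23, H2ac23 and H2ac24, listed at 0 in all 6 libraries together with H4bc24. Of the genes that are not histone genes, Hfe had 0.851 and 0.906, 0.663 and 0.849, and 0.736 and 0.880 EPM per kb, and the olfactory receptor Olfr1359 had 1, 0, 2, 0, 0 and 0 break ends in all.

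The comparison of gates asked whether break ends at the histone clusters changed with Cd73. Summed over the 51 start windows, with overlapping windows merged, the level was 4.41 and 5.49 EPM per kb for negative, 3.39 and 4.49 for mid, and 2.83 and 2.28 for high libraries. The high libraries lay below all others, while negative and mid overlapped. Cd73 high was at 0.517-fold of negative and 0.651-fold of mid; the exact two-sided permutation test gave p = 0.333 for both (0.5 adjusted over 3 comparisons), the smallest that 2 against 2 libraries allow. Mid was at 0.794-fold of negative (exact permutation p = 0.667, also 0.667 adjusted). All protein-coding starts were also lower, high being at 0.670-fold of negative, so relative to them the histone starts were at 0.771-fold (exact permutation p = 0.333). The histone level over that of all starts was 1.55 and 1.66 for negative, 1.55 and 1.56 for mid, and 1.30 and 1.17 for high. Depth, and the share of break ends at positions counted more than once (25.5% and 26.2%, 12.8% and 16.6%, 6.32% and 6.38%), fell in the same order, and their part in the start levels was not tested.

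By family, Cd73 high lay below negative in each of the 5. All protein-coding starts went the same way, with 3.07 ± 0.32 EPM per kb in negative, 2.53 ± 0.49 in mid and 2.06 ± 0.16 in high (SD, n = 2). The histone starts of the interval had 4.88 ± 1.32, 4.93 ± 1.77 and 4.26 ± 2.59. Among the families of the clusters the levels were as follows. H4 had the lowest levels, 2.20 ± 0.29 EPM per kb in negative, 1.45 ± 0.13 in mid and 0.569 ± 0.434 in high (SD, n = 2). The H4 value in high rests on 4 and 1 break ends. H1 had 5.83 ± 0.30 in negative, 6.01 ± 1.40 in mid and 3.79 ± 0.20 in high. H2A had 6.03 ± 0.34, 4.48 ± 0.97 and 2.93 ± 0.75, H2B 6.43 ± 0.09, 4.87 ± 1.48 and 3.31 ± 1.27, and H3 5.66 ± 2.22, 4.74 ± 0.96 and 2.95 ± 0.47. Differences between families in this respect were not tested.

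**Figure D5:**
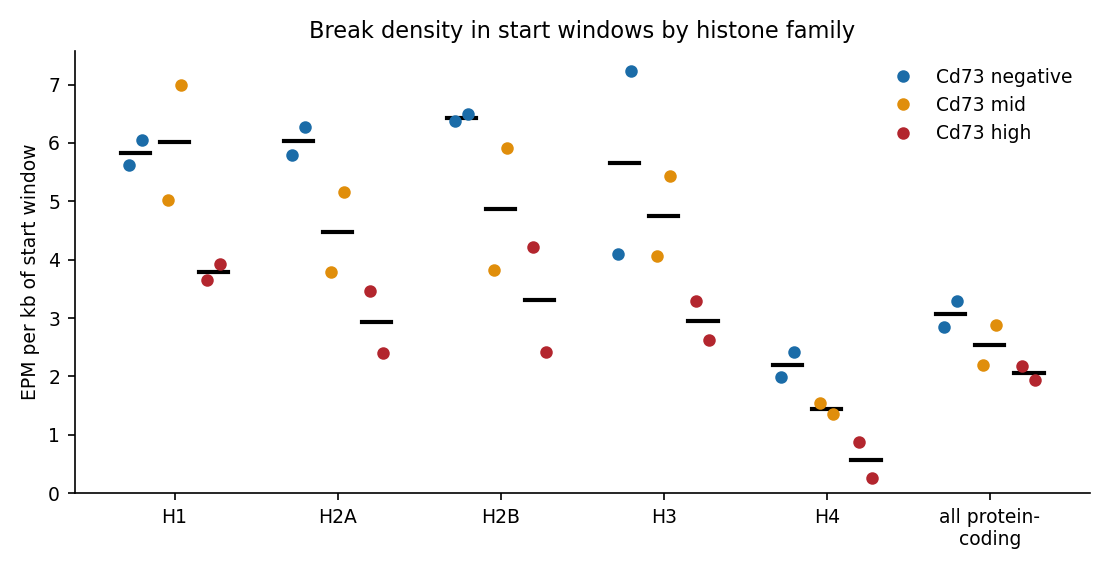
Break density in start windows (vertical axis, EPM per kb) for each histone family and for all protein-coding starts (horizontal axis); points are libraries coloured by Cd73 gate and black bars are means of 2. The high points lie below the negative points in all 5 families, and H4 lies below the other families in every gate.

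No histone feature passed the genome-wide test in any comparison of gates. With edgeR's quasi-likelihood test, 38 of 44 bins of 10 kb in the clusters passed the filter on low counts and 0 were called at a Benjamini-Hochberg adjusted p under 0.05. The background was almost empty as well: 0.000888% of 225350 bins were called for high against negative, 0.000444% for mid against negative and 0% for high against mid. At an unadjusted p under 0.05 there were 6, 4 and 2 cluster bins among the 38, against 13846, 10028 and 11029 of all bins. For high against negative, 32 of the 38 bins had a negative log2 fold change (median -0.36), against 112176 of 225350 (median 0.01). The densest 10% of all bins leaned that way too: their median was -0.23, that of the 16 cluster bins among them -0.36 and that of the 13 interval bins among them -0.38. The next densest 10% of all bins did not, with a median of 0.03, whereas the 9 cluster bins among those had -0.54. Bins of 5 kb and windows of 1 kb gave 0 calls in the clusters too, with 0.000713%, 0% and 0.000713% of all bins and 0.44%, 0.023% and 0.0517% of all windows called in the 3 comparisons.

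As whole regions, the clusters had log2 fold changes of -0.40 ± 0.44 (SE) for high against negative, -0.20 ± 0.42 for mid against negative and -0.19 ± 0.44 for high against mid, with edgeR adjusted p of 0.758, 0.941 and 0.991. The interval had -0.17 ± 0.75, -0.07 ± 0.74 and -0.10 ± 0.76. Cluster A had the largest change of the 3 for high against negative, -0.64 ± 0.17 (unadjusted p = 0.000349, edgeR adjusted p = 0.277), before cluster C at -0.44 ± 0.18 (adjusted p = 0.400) and cluster B at -0.30 ± 0.31 (adjusted p = 0.738). The SE of a summed region comes largely from regions with like counts across the genome; the clusters themselves had 304 and 340 CPM after TMM scaling for negative, 252 and 307 for mid, and 256 and 233 for high. Of all regions tested, 0.0279% were called for high against negative, 0.00798% for mid against negative and 0% for high against mid. The log2 ratio of clusters to interval was lower by 0.22 in high than in negative (exact permutation p = 0.333, 1 after adjustment over 3 comparisons); mid against negative and high against mid gave p = 0.667 and 1.

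Gene windows gave 0 calls as well, by edgeR and by DESeq2. Of the 54 histone genes 40 passed the filter, and 4, 4 and 2 of these had an unadjusted edgeR p under 0.05 for high against negative, mid against negative and high against mid, beside 1687, 649 and 811 of all 18209 genes tested. At the adjusted threshold 0.00549%, 0% and 0% of those genes were called. The log2 fold change for high against negative was negative in 35 of the 40 and in 9309 of all 18209 genes. The filter can keep a gene through the gate in which it is high, so that count was set beside the sum over all 54 windows: 206 ± 20.8 EPM (negative), 173 ± 42.7 (mid) and 137 ± 14.6 (high) (SD, n = 2). Summed over all protein-coding gene windows under 2 kb wide, the log2 ratio of high over negative was -0.17, and over the histone windows under 2 kb it was -0.80. Overlapping gene windows were not merged in these sums, so a break end shared by neighbouring genes counts for each of them. In 29 of the 54 genes both high libraries lay below both negative ones, and in 0 above; over all genes with break ends, 35.3% had high below negative and 10.8% high above negative without overlap. For mid against negative, 20 of 54 were below (23.2% of all genes) and 0 above (10.2%). For high against mid, 12 of 54 were below (23%) and 4 above (10.9%). Of the 51 start windows 15 passed the filter and 0 were called, where 0.0534%, 0% and 0% of 3744 starts were.

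The smallest p for high against negative belonged to H2bc15, an H2B gene of cluster A, with 38, 51, 7, 28, 0 and 1 break ends (negative, mid, high) (log2 fold change -3.07 ± 1.02 SE, edgeR adjusted p = 0.290). Its mid libraries, at 0.995 and 3.67 EPM per kb, straddled the negative ones at 1.97 and 2.74. H2bc15 also led for high against mid (-3.15 ± 1.05), before H3c11 (34, 32, 12, 15, 0 and 1 break ends) and H2ac22 (56, 62, 28, 16, 4 and 2), with an edgeR adjusted p of 1 in each case. After H2bc15, the order for high against negative was H2ac8, with 76, 65, 13, 16, 4 and 1 break ends (-1.47 ± 0.60, edgeR adjusted p = 0.424), and H4c8, with 50, 56, 10, 17, 2 and 1 (-1.79 ± 0.74, adjusted p = 0.430). For mid against negative the smallest p belonged to H3c7, with 33, 67, 5, 11, 4 and 2 break ends (-1.21 ± 0.42), H2ac8 (-0.85 ± 0.34) and H2ac4, with 57, 76, 9, 20, 2 and 7 (-0.77 ± 0.34), each with an edgeR adjusted p of 0.997. High counts of 0 to 7 leave the size of these differences poorly known.

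Other genes tied to histones and to DNA replication were compared in the same fit, with 0 calls by edgeR in any list. For high against negative, 9 of 11 histone variant genes had a negative log2 fold change (median -0.30), 11 of 16 genes for histone mRNA processing and the histone locus body (median -0.09), and 15 of 24 S phase genes (median -0.08), against a median of -0.01 over all genes. Of the 8 replication-dependent histone genes outside the clusters and the interval 6 passed the filter, 5 of them negative (median -1.18, none called). Some of the 8 lie close to the chosen regions. H2ac21, H2ac20 and H2bc21 lie just before cluster C, from 96219885 to 96223738 on chromosome 3. H2bc1 and H2ac1 lie past cluster B, from 23933725 to 23934913 on chromosome 13. The 5 histone genes that lie in the interval, H2ac11, H2ac12, H2bc11, H2bc12 and H4c9, ran from -0.78 to 0.10. The 6 windows of the interval that touch them averaged 1.86 ± 0.49 EPM per kb (SD over 6 libraries). The 139 windows of the clusters that touch a histone gene averaged 1.03 ± 0.23, but they include the long annotated spans named above. The other windows of the interval were lower: 0.750 ± 0.077 in 78 windows with another protein-coding gene, 0.631 ± 0.069 in 71 windows with a tRNA gene and 0.202 ± 0.012 in 135 windows with a vomeronasal receptor gene, a family expressed in the vomeronasal organ.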

How the data were processed

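Break ends were read from the 6 enterocyte libraries. Blunting, ligation and amplification by transcription are described per the labels' protocols. BWA and GRCm38 come from the submitters' processing notes, with version and filters not given in the sources used here. Deposited values are counts of break ends per position, not normalized and without strand, 1 table per library; whether they count molecular identifiers or reads is not stated. Mitochondrial and unplaced positions were left out. Counts were summed over windows of 1 kb, bins of 10 kb, regions, protein-coding genes with 500 bp on each side and start windows (250 bases before to 50 from each start; RefSeq, GRCm38.p6). They were fitted with edgeR 4.0.16 under R 4.3.3 (quasi-likelihood test, TMM scaling, filterByExpr, 3 groups, Benjamini-Hochberg over all features, called under 0.05) or DESeq2 1.42.0, and tested on simulated data. Regions replaced the 100 kb bins they touch in a fit over the genome. Single values were compared by exact permutation tests, in Python 3.11.15 with scipy 1.17.1 and numpy 2.4.6. Named genes were the 5 densest and 3 least dense histone genes, the 3 with smallest p in each comparison, both other genes of the clusters, and the 3 densest windows per cluster; genes in the start window section were picked after their values were seen. Members and lists were chosen with earlier results of these data known. The start window fit, the copy check and the profile were added after the data were seen. The labels do not say that the M numbers mark a shared animal, and deviations of same-numbered libraries correlated at 0.115 (negative and mid), 0.002 and 0.004, so the numbers were not used as pairs in the main fits.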

Additional observations from a re-analysis of the deposited data

How the results depend on the processing

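The calls of histone bins, gene windows and start windows were 0 under every alternative run, including bins of 1 kb and 5 kb. The summed log2 fold changes of the clusters and of the interval stayed negative and uncalled under every alternative. The ratio of clusters to interval, 2.33, 2.13 and 2.0 in Cd73 negative, mid and high, was 2.07 (negative) and 1.95 (high) with each position counted once, and 2.51 and 1.99 with all libraries thinned to the shallowest. In Cd73 high it was 1.88 without empty windows and 2.05 without the windows of the interval within 5 kb of a histone gene. Taken alone and with empty windows kept, cluster A gave 1.67, 1.46 and 1.20, cluster B 2.72, 2.54 and 2.49, and cluster C 2.05 in high. The median over windows was 0 in both high libraries for clusters and interval, so it gives no ratio there. The difference in log2 ratio between high and mid, -0.08, turned to 0.0044 after thinning and to 0.053 without mid M2; the cause was not tested. With a library left out it ran from -0.21 to 0.053, that of high minus negative from -0.29 to -0.15, and that of mid minus negative from -0.27 to -0.01. Over 5 libraries the mean log2 ratio of clusters to interval was 1.06 to 1.13 and that of windows touching histone genes to the others 1.07 to 1.20, each with p = 0.0625, the smallest exact permutation p that 5 libraries allow. With the M number as a replicate block, the log2 fold change of the clusters for high against negative was -0.39 (edgeR adjusted p = 0.678), and the log2 ratio differed by -0.22; the block made 0 calls among histone features, and 58 of 18209 genes against 1 without it. Leaving out the start windows with copied sequence gave -0.95 for the log2 difference in summed start level of high against negative, as with them. The Cd73 high libraries limit the precision: a window with 0 break ends there can hold up to 1.97 or 2.36 EPM.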
